A study of Mus musculus with 4 samples.

Results

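The 40 genes described here encode proteins that act in G2 phase and mitosis: regulators of mitotic entry, chromosome scaffolds, spindle and kinetochore proteins, checkpoint proteins and the machinery of cytokinesis. They were taken as the rows of both deposited tables whose symbol is on a list of G2, spindle, kinetochore and cytokinesis genes, and all 40 had a row and an adjusted p-value in each table. They are 40 of 25522 genes listed for mice without tetracycline and 40 of 26085 listed for mice with it. The rule uses no measured value, although the list was drawn up with earlier results of these data in view.

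RNA was measured in bulk from small-intestinal crypts, the pits of the gut lining where its stem cells divide, of C57BL/6J mice, all males aged 9 weeks. Crypts were loosened by shaking in a salt buffer with EDTA, cells were separated with trypsin, and libraries came from the NEBNext Ultra II kit in its non-directional form. The 4 groups were fed mice without tetracycline, mice fasted for 24 hours without tetracycline, fed mice with tetracycline for 21 days, and mice fasted for 24 hours with tetracycline for 21 days. The submitters stated that tetracycline served to deplete what they abbreviate as AKK, and asked how this alters expression in fed against fasted mice. Each group has 1 labelled sample, and whether any sample pools several mice is not given in the sources used here. The deposited tables hold the authors' fasting comparisons, 1 without and 1 with tetracycline, and the whole counts behind their means showed 2 fed and 2 fasted libraries in each table. Nothing ties these libraries to separate mice, so the p-values measure the spread between libraries, which may be technical. The library with the larger size factor in a group is called library 1, and the number pairs nothing across groups. Size factors ran from 0.930 to 1.09 without and from 0.727 to 1.27 with tetracycline, and the means of all genes summed to 65863261 and 65327199 normalized counts. The 7 epithelial markers were all tested, with rebuilt group means that summed to 492283 to 605774 normalized counts.

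A cell enters mitosis when the kinase Cdk1, bound to A-type and B-type cyclins, becomes active. Condensins and topoisomerase II then compact and disentangle the chromosomes, motors and Aurora kinases build the spindle, and kinetochores attach it to the centromeres. The spindle checkpoint holds back the anaphase-promoting complex until every chromosome is attached, after which securin and the cyclins are destroyed and the cell divides in the middle. Most of these genes are transcribed in a wave that peaks in G2 and mitosis, so in intact tissue their RNA marks cells that are dividing, which in the crypt are stem cells and, above all, transit-amplifying cells. Crypt epithelium is among the fastest dividing tissues of an adult mouse.

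In crypts without tetracycline, all 40 genes had a lower estimate after fasting, and 5 of them fell: Aurka, Birc5, Cdca3, Plk1 and Ube2c. Of all genes tested, 49.5% had an estimate below 0 and 1.22% were called lower. Aurka and Birc5 were still called when p-values were adjusted over every gene with a p. In the authors' deposited table the median log2 fold change of the 40 was -0.78, against 0.0067 over all genes tested, and single genes ran from -1.28 (Aurka) to -0.12 (Cenpe). A median member stood at 58.2% of its fed mean after the fast. In crypts with tetracycline all 40 estimates again lay below 0, but none passed the test, and the median in the authors' deposited table was -0.52 against -0.018 over all genes tested. There, 51.8% of all genes tested had an estimate below 0 and 0.267% were called lower. A test of the difference between these changes passed for none of the 40 genes. In bulk RNA, fewer dividing cells and less of these RNAs in each cell cannot be told apart.

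The proximal promoters of these genes are shown for the 5 that fell and for Cenpe, whose estimate was nearest to 0. Many genes of the G2 and mitosis wave carry a cell cycle genes homology region, whose core is TTTGAA and to which the DREAM and MuvB complexes bind, together with CCAAT boxes bound by NF-Y. The sequences are from RefSeq on GRCm38.p6 and run 5′ to 3′ along the gene, from 250 bases before the annotated start to 50 bases after it. That start is a RefSeq start and need not be the outermost 5′ end of the gene. The Aurka gene reaches 172370886 on chr2 and the Cdca3 gene begins at 124829530 on chr6, so both starts lie inside. Capitals mark TTTGAA or CCAAT on either strand, the reverse complements being TTCAAA and ATTGG. The windows are chr2:172370521-172370820 (minus strand) for Aurka, chr7:122159185-122159484 (plus strand) for Plk1, chr2:164769679-164769978 (plus strand) for Ube2c, chr6:124829926-124830225 (plus strand) for Cdca3, chr11:117848987-117849286 (plus strand) for Birc5 and chr3:135212313-135212612 (plus strand) for Cenpe.
Aurka: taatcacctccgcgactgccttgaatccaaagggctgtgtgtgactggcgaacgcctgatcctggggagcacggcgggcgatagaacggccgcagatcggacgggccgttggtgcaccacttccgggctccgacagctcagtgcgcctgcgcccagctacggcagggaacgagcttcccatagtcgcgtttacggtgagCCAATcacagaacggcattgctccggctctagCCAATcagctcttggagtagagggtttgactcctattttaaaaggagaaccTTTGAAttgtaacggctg
Plk1: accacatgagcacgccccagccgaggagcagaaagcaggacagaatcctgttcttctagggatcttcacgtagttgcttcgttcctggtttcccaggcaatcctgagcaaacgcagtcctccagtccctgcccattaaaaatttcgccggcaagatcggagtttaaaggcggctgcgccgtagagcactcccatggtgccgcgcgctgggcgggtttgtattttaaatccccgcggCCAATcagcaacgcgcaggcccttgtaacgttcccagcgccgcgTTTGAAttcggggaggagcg
Ube2c: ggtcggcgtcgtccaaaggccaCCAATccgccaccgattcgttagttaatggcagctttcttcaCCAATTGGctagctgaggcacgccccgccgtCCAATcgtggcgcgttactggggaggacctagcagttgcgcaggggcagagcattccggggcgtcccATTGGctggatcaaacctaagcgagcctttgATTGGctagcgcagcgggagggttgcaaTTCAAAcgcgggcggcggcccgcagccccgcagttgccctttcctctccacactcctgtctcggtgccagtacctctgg
Cdca3: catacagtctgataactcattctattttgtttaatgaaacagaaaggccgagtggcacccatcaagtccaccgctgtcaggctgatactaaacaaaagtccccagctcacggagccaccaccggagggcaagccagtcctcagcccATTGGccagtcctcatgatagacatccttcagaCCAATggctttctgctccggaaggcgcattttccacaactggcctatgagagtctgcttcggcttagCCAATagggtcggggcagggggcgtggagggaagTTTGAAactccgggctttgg
Birc5: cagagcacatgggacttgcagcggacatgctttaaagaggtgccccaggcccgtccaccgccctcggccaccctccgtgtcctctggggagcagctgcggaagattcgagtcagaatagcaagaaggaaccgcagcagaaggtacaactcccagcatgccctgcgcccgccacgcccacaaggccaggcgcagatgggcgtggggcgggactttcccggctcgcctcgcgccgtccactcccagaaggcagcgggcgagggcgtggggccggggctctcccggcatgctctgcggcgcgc
Cenpe: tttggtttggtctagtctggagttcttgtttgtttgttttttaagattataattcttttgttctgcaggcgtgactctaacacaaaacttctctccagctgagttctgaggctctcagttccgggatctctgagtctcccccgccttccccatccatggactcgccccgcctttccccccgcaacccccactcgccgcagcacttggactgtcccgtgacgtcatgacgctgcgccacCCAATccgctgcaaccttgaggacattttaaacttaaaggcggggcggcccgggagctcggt

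Of the 5 genes that fell, Aurka, Plk1, Ube2c and Cdca3 held both motifs in this window, and Birc5 held neither. With the annotated start counted as 0 and positions given for the first base of a match, TTTGAA began at 32 in Aurka, at 30 in Plk1 and at 30 in Cdca3, and its reverse complement at -29 in Ube2c. The Cenpe window held 1 CCAAT and no TTTGAA. A RefSeq promoter was matched for 34 of the 40 genes, and Aurkb, Ccna2, Cdc25c, Incenp, Kif20a and Tpx2 had no entry. Some of the RefSeq starts lie inside the annotated gene. The window of Kif2c is chr4:117178723-117179022, in a minus-strand gene that begins at 117182624. That of Pttg1 is chr11:43425932-43426231, in a minus-strand gene that begins at 43427463. Both are counted here as promoters. TTTGAA was present on either strand in 26 of these 34 promoters (76.5%), against 20.2% of 27025 genes. A gene with several annotated starts (Bub3, Ect2 and Prc1 among the members) was counted as holding a motif if any of its windows did. CCAAT was present in 26 of 34 (76.5%), against 41.1% of all, and both in 23 of 34 (67.6%), against 8.97%. The motifs can overlap each other by at most 1 base, but CCAAT can overlap its own reverse complement, as in Ube2c.

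The TTTGAA matches sat close to the start. With 1 window taken per gene, the first in genome order, 24 of 33 matches in member promoters (72.7%) began between -50 and 49, against 24.9% of 5639 matches over all genes, and their median position was 2. CCAAT matches had a median position of -76, with 20 of 64 between -50 and 49, against 28.3% of all CCAAT matches. In the 150 bases before the start alone, TTTGAA was found in 12 of 34 member promoters (35.3%) and in 10.5% of all. The 8 members without TTTGAA in the window were Birc5, Bub1, Ccnb1, Cenpe, Mad2l1, Nuf2, Nusap1 and Pttg1. Their median log2 change in the authors' deposited table without tetracycline was -0.88, and that of the 26 with the motif -0.75. In the authors' deposited table with tetracycline the medians were -0.49 and -0.55, the other way round. These counts describe letters in a window and not bound sites.

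The comparison of fasted with fed crypts without tetracycline asked what a day of fasting changed when the microbiota was left untreated. In the authors' deposited table, 5 of 40 members were called lower at an adjusted p under 0.05 and 0 higher, where 1.22% of 18100 tested genes were called lower and 2.27% in either direction. An unadjusted p under 0.05 with a lower estimate was found for 31 members in the authors' deposited table, against 6.21% of tested genes. Both fasted libraries lay below both fed libraries for 31 of 40 members, against 23.1% of the decoded genes. The 9 members whose groups overlapped were Cenpe, Cenpf, Ect2, Kif11, Kif23, Mki67, Ncapd2, Top2a and Ttk.

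The same comparison in mice given tetracycline called 0 of 40 members in either direction in the authors' deposited DESeq2 table, where 0.267% of 17993 tested genes were called lower and 0.6% in either direction. Only Bub1 had an unadjusted p under 0.05 there (0.0465 in the authors' deposited table), against 3.06% of tested genes with such a p and a lower estimate. Both fasted libraries lay below both fed libraries for 23 of 40 members, against 15.9% of the decoded genes. Standard errors of the members were larger in this table, 0.36 to 0.51 on the log2 scale against 0.25 to 0.39 without tetracycline, in the authors' deposited tables. The groups were apart in both tables for 20 members, without tetracycline alone for 11, with tetracycline alone for 3, and in neither for 6. The shares over the decoded genes, 23.1% without and 15.9% with tetracycline, are per table. No split over both is given for all genes, so these 4 counts have no background.

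**Figure D1:**
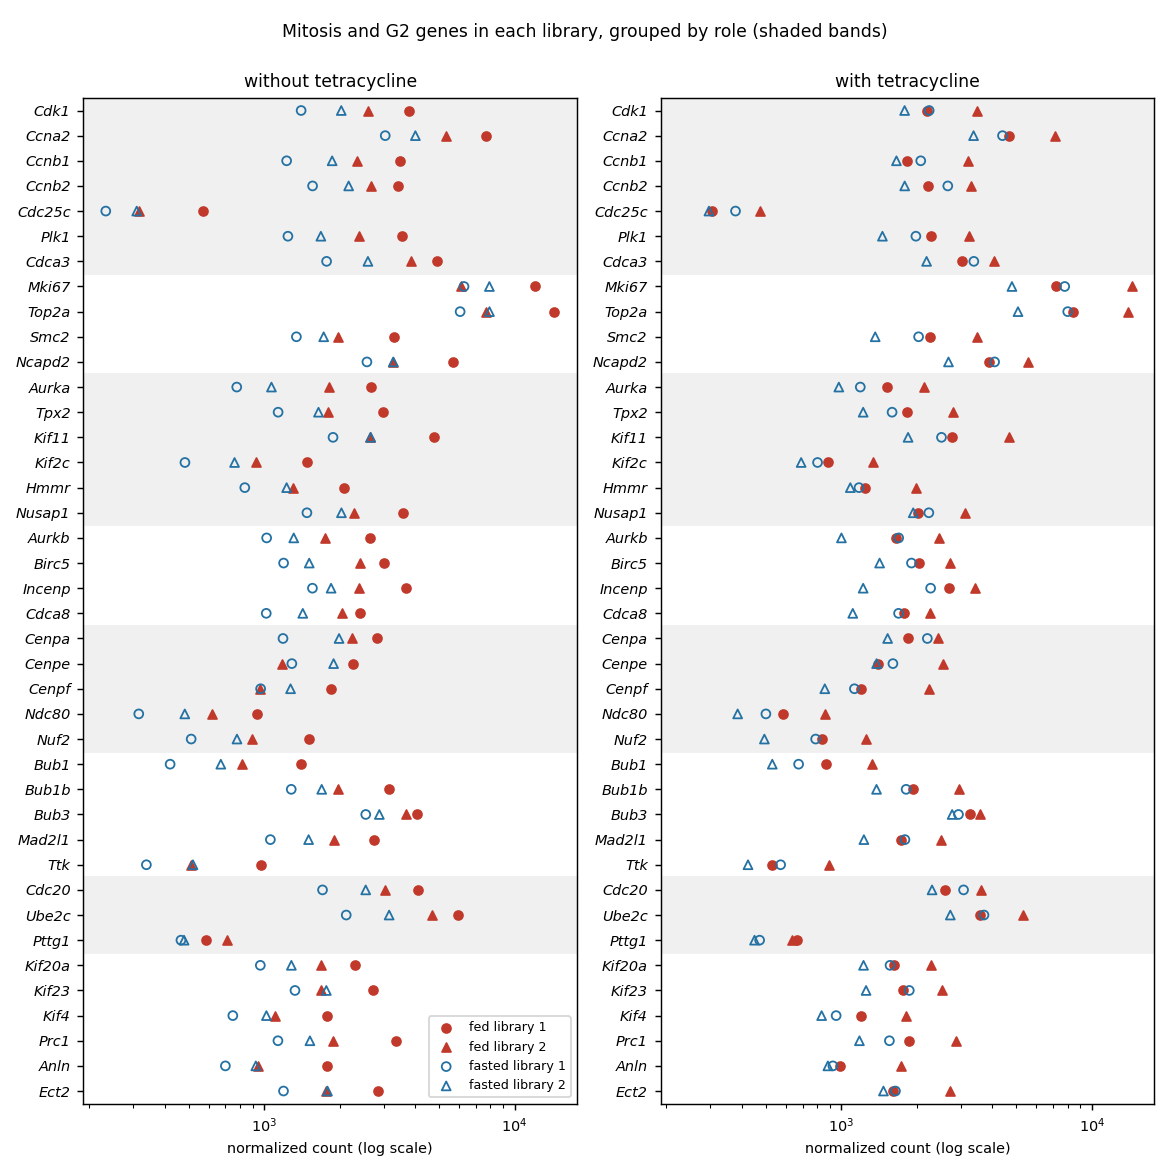
Normalized counts (log scale) of the 40 genes in each library, without (left) and with tetracycline (right), with fed libraries as filled and fasted libraries as open symbols and roles as shaded bands. Without tetracycline fed library 1 is the highest for 39 genes and both fasted libraries lie below both fed ones for 31, and with tetracycline fed library 2 is the highest for 39 genes and the groups are apart for 23.

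The libraries of one side differed from each other almost as a block. Summed over the 40 genes, the fed libraries without tetracycline held 139431 and 90149 normalized counts and the fasted ones 58429.9 and 79245. Fed library 1 exceeded fed library 2 for 39 of 40 members, all but Pttg1, by a median ratio of 1.59, and fasted library 2 exceeded fasted library 1 for all 40, by a median ratio of 1.37. The fed and fasted sums did not overlap, but the step from fasted library 2 to fed library 2 was smaller than the gap between the fed libraries. With tetracycline the sums were 86799 and 133302 in the fed and 85905 and 62286 in the fasted libraries. Fed library 2 exceeded fed library 1 for 39 of 40 members there, again all but Pttg1, by a median ratio of 1.51. The sum of fasted library 1 was thus close to that of fed library 1, and 17 members were higher in fasted library 1 than in fed library 1.

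Leaving out 1 library at a time showed how much each side rested on a single library. Without tetracycline the median log2 ratio of the group means was -0.49 without fed library 1, which left 37 of 40 members lower, and -1.09 without fed library 2, which left 40. It was -0.57 without fasted library 1, with 39 members lower, and -1.06 without fasted library 2, with 40. With tetracycline the median was -0.23 without fed library 2, with 34 of 40 lower, and -0.83 without fed library 1, with 40 lower. The corresponding values were -0.78 without fasted library 1, with 40 lower, and -0.403 without fasted library 2, with 39 lower. The tetracycline median therefore moved by more than 1.5 times when fed library 2 or fed library 1 was left out, and the median without tetracycline when fed library 1 was. Of the 5 genes that fell, Aurka kept a log2 ratio of -1.53 to -0.97 over the 4 omissions and Plk1 of -1.28 to -0.71. The ratios ran from -1.18 to -0.83 for Birc5, from -1.302 to -0.75 for Cdca3 and from -1.32 to -0.75 for Ube2c. Over all genes compared, 48.5% to 52.2% had a lower ratio in these omissions without and 50.2% to 55.7% with tetracycline. These are ratios of means, and no test was rerun on 3 libraries.

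**Figure D2:**
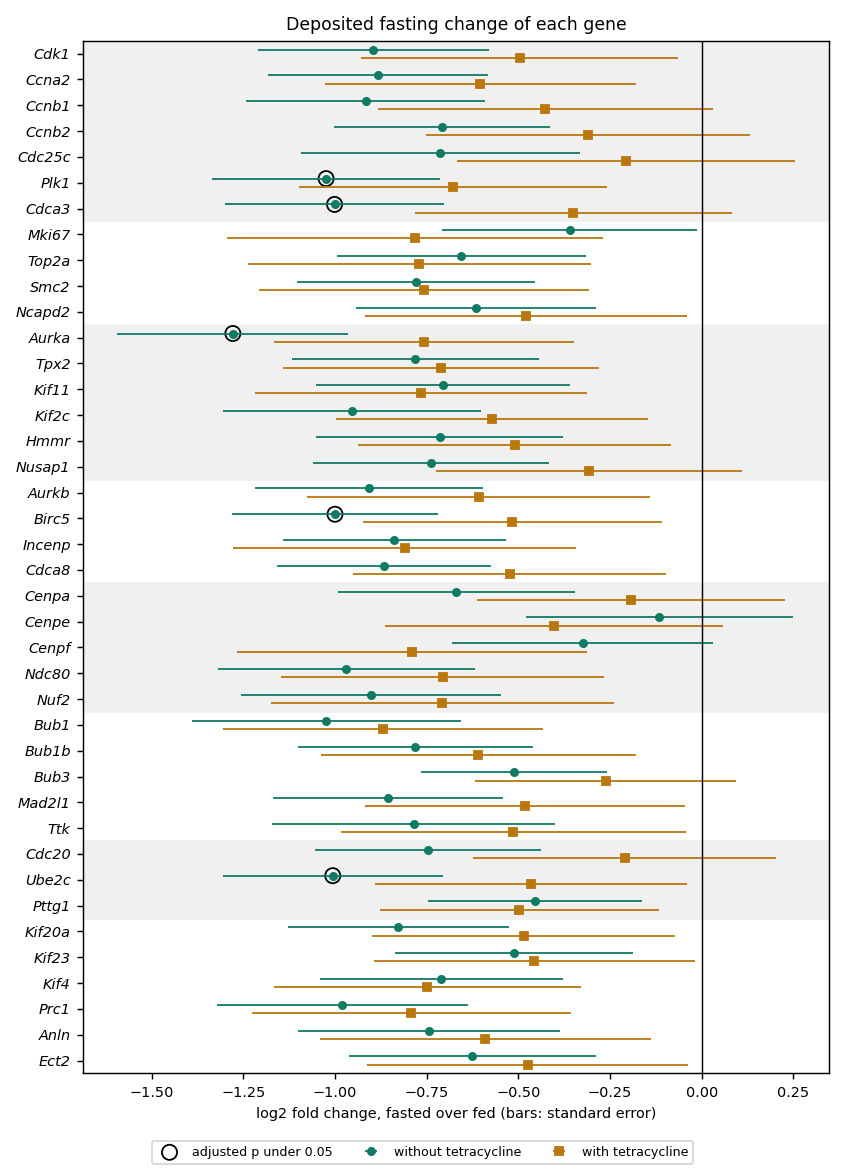
Log2 fold change of each of the 40 genes, fasted over fed, from the authors' deposited tables, with the deposited standard error as bars, without (circles) and with tetracycline (squares). All 80 estimates lie below 0, and the rings mark the 5 with an adjusted p under 0.05, which are all from the table without tetracycline.

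Among the 7 regulators of mitotic entry, Plk1 and Cdca3 fell without tetracycline. The groups were apart for all 7, against 23.1% of the decoded genes. Plk1, the polo-like kinase that helps to activate Cdk1 and later acts at centrosomes and kinetochores, had 3566 and 2390.1 normalized counts in the fed libraries and 1244 and 1684 in the fasted libraries. Both fasted values were under the lower fed value, and in the authors' deposited table Plk1 fell by 1.02 on the log2 scale (adjusted p 0.0461, SE 0.31). The Plk1 call was lost when p-values were adjusted over every gene with a p (adjusted p 0.0649) and after centring on the median change (0.0536). Cdca3, an adaptor tied to mitotic entry, had 4897 and 3854 normalized counts in the fed libraries and 1775 and 2596 in the fasted libraries. It was at 49.95% of its fed mean, and in the authors' deposited table it fell by 1.002 on the log2 scale (adjusted p 0.0385, SE 0.299). Over every gene with a p, the Cdca3 call was lost (adjusted p 0.0543). Ccna2, cyclin A2, had the highest mean of the group with 7711 and 5315 normalized counts in the fed libraries and 3044 and 4017 in the fasted libraries. Its groups did not overlap, and its change of -0.88 (adjusted p 0.0985, SE 0.299) in the authors' deposited table missed the threshold. The estimate nearest to 0 was that of Ccnb2, cyclin B2, at -0.71 (SE 0.29) in the authors' deposited table. Cdk1, the central mitotic kinase, and Ccnb1, cyclin B1, stood at 53.8% and 53.0% of their fed means.

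With tetracycline the mitotic entry genes had a median change of -0.43 in the authors' deposited table. The groups were apart for 2 of 7, against 15.9% of the decoded genes. Plk1 had 2283 and 3228 normalized counts in the fed libraries and 1984 and 1458 in the fasted libraries, with no overlap and a change of -0.68 (adjusted p 0.9999, SE 0.42) in the authors' deposited table. Cdca3 had 3019.98 and 4080.2 normalized counts in the fed libraries and 3380.1 and 2189 in the fasted libraries. Its fasted library 1 exceeded its fed library 1, and its change in the authors' deposited table was -0.35 (adjusted p 0.9999, SE 0.43). Cdc25c, the phosphatase that activates Cdk1, had the lowest counts of all members and the estimate nearest to 0 here, -0.21 (SE 0.46) in the authors' deposited table, with 306 and 472 normalized counts in the fed libraries and 378 and 296 in the fasted libraries. Its fasted library 1 was above its fed library 1. Without tetracycline its change was -0.71 (SE 0.38) in the authors' deposited table.

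Of the 4 chromosome structure genes, 3 had overlapping groups without tetracycline, Mki67 and Top2a among them. Smc2 had groups apart, as did 23.1% of the decoded genes. Mki67, the protein that coats mitotic chromosomes and the most used marker of proliferation, had 12113 and 6128 normalized counts in the fed libraries and 6281 and 7931 in the fasted libraries. Fed library 2 was the lowest of the 4, and the change in the authors' deposited table was -0.36 (adjusted p 0.83, SE 0.35). With tetracycline Mki67 had 7199.9 and 14468 normalized counts in the fed libraries and 7797 and 4799 in the fasted libraries. Here fasted library 1 exceeded fed library 1, and the change was -0.78 (adjusted p 0.9999, SE 0.51) in the authors' deposited table. Top2a, the topoisomerase that disentangles sister chromosomes, had 14372 and 7686 normalized counts in the fed libraries and 6061 and 7938 in the fasted libraries, the highest mean of all 40 genes. Fasted library 2 exceeded fed library 2, and the change was -0.66 (adjusted p 0.475, SE 0.34) in the authors' deposited table. With tetracycline its groups were apart and its estimate was -0.77 (SE 0.47) in the authors' deposited table.

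Of the condensin subunits, Smc2 was at 58.3% of its fed mean without and 59.2% with tetracycline, with groups apart in both. In the authors' deposited tables its change was -0.78 (SE 0.33) without and -0.76 (SE 0.45) with tetracycline. Ncapd2 overlapped between groups in both tables, at -0.62 (SE 0.33) and -0.48 (SE 0.44) in the authors' deposited tables.

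Aurka, the Aurora kinase of centrosomes and spindle poles, had the largest fasting difference of all 40 members without tetracycline. It had 2669.6 and 1808 normalized counts in the fed libraries and 777 and 1069 in the fasted libraries. The lower fed value was well above the higher fasted one, and in the authors' deposited table Aurka fell by 1.28 on the log2 scale (adjusted p 0.00445, SE 0.32), to 41.2% of its fed mean. With tetracycline Aurka had 1521 and 2144 normalized counts in the fed libraries and 1189.8 and 977 in the fasted libraries. The groups were apart again, and the change in the authors' deposited table was -0.76 (adjusted p 0.99, SE 0.41). The other 5 spindle assembly genes were Tpx2, the activator of Aurka, the pole-separating motor Kif11, the microtubule depolymerase Kif2c, and the spindle proteins Hmmr and Nusap1. Without tetracycline Kif11 had 4780.4 and 2635 normalized counts in the fed libraries and 1883 and 2663 in the fasted libraries, so that fasted library 2 and fed library 2 were nearly level, and its change of -0.71 (SE 0.35) in the authors' deposited table was the nearest to 0 of the group. Tpx2 and Kif2c stood at 58.2% and 51.6% of their fed means. With tetracycline 5 of 6 spindle genes had groups apart, all but Nusap1, against 15.9% of the decoded genes. The Nusap1 estimate of -0.31 (SE 0.42) in the authors' deposited table was the nearest to 0 of the group.

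In the chromosomal passenger complex, which corrects faulty attachments and later directs cytokinesis, Birc5 fell without tetracycline. The groups were apart for 4 of 4 genes, against 23.1% of the decoded genes. Birc5, or survivin, had 3007 and 2410.2 normalized counts in the fed libraries and 1195 and 1513 in the fasted libraries. In the authors' deposited table it fell by 1.0004 on the log2 scale (adjusted p 0.0213, SE 0.28). Incenp, the scaffold of the complex, had the estimate nearest to 0 of the group at -0.84 (adjusted p 0.144, SE 0.304) in the authors' deposited table. The kinase Aurkb and borealin, encoded by Cdca8, were at 53.3% and 54.8% of their fed means. With tetracycline Incenp had 2697 and 3431 normalized counts in the fed libraries and 2272 and 1222 in the fasted libraries. Fasted library 2 was far below the other 3, and the change of -0.81 (adjusted p 0.9999, SE 0.47) was the lowest of the group in the authors' deposited table. Birc5 had 2047 and 2712 normalized counts in the fed libraries and 1905 and 1421 in the fasted libraries and a change of -0.52 (adjusted p 0.9999, SE 0.41) in the authors' deposited table.

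The kinetochore and centromere genes held the members nearest to 0 in both tables. Cenpe, the kinesin that carries chromosomes to the spindle equator, had 2271 and 1176 normalized counts in the fed libraries and 1289.7 and 1893 in the fasted libraries without tetracycline. Fed library 2 was the lowest of the 4, and the change was -0.12 (adjusted p 0.971, SE 0.36) in the authors' deposited table. Cenpf, a large kinetochore protein, had 1841 and 965 normalized counts in the fed libraries and 968 and 1274 in the fasted libraries. Fed library 2 lay below both fasted libraries, and the change was -0.32 (adjusted p 0.864, SE 0.36) in the authors' deposited table. Ndc80 and Nuf2, partners in the complex that grips microtubules, differed from these in that both had groups apart without tetracycline. The estimate of Ndc80 was -0.97 (adjusted p 0.142, SE 0.35) in the authors' deposited table, and its counts were 939 and 621 normalized counts in the fed libraries and 316 and 482 in the fasted libraries.

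With tetracycline Cenpf had 1197 and 2241 normalized counts in the fed libraries and 1127 and 859 in the fasted libraries, with no overlap and the lowest estimate of this group, -0.79 (adjusted p 0.9999, SE 0.48) in the authors' deposited table. Cenpa, the histone variant that marks centromeres, had 1847 and 2424 normalized counts in the fed libraries and 2204 and 1529.9 in the fasted libraries. Its fasted library 1 exceeded fed library 1, and its change of -0.19 (adjusted p 0.9999, SE 0.42) in the authors' deposited table was the nearest to 0 of all 40 members. Without tetracycline Cenpa stood at 62.9% of its fed mean, with groups apart.

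Bub1, the checkpoint kinase that recruits the other Bub proteins to kinetochores, had one of the lowest estimates in both tables. Without tetracycline it had 1405 and 815 normalized counts in the fed libraries and 421 and 671 in the fasted libraries. The groups were apart, and its change of -1.02 (adjusted p 0.135, SE 0.37) in the authors' deposited table did not pass, although it was as large as that of Plk1, which did. With tetracycline Bub1 had 872 and 1329.9 normalized counts in the fed libraries and 675 and 529.7 in the fasted libraries. The groups were apart again, and the change was -0.87 (adjusted p 0.927, SE 0.44) in the authors' deposited table. Bub3, the adaptor of the same complex, had 4069 and 3671 normalized counts in the fed libraries and 2545 and 2883 in the fasted libraries without tetracycline. It varied least between libraries of one side and had the estimate nearest to 0 of the 5 checkpoint genes, -0.51 (adjusted p 0.437, SE 0.25) in the authors' deposited table. With tetracycline Bub3 was again the nearest to 0, -0.26 (SE 0.36) in the authors' deposited table, with groups apart. Without tetracycline Bub1b, Mad2l1 and the kinase Ttk stood at 58.2%, 55.2% and 58.0% of their fed means.

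Of the genes of anaphase onset, Ube2c fell without tetracycline and Pttg1 had the counts that varied least between the libraries of a side. Ube2c, the ubiquitin-conjugating enzyme of the anaphase-promoting complex, had 5942 and 4668 normalized counts in the fed libraries and 2126 and 3155 in the fasted libraries. Both fasted values were below both fed values, and in the authors' deposited table Ube2c fell by 1.01 on the log2 scale (adjusted p 0.0385, SE 0.2999). Over every gene with a p, the Ube2c call was lost (adjusted p 0.0543). With tetracycline Ube2c had 3572 and 5312 normalized counts in the fed libraries and 3710.1 and 2723 in the fasted libraries. Fasted library 1 was above fed library 1, and the change in the authors' deposited table was -0.47 (adjusted p 0.9999, SE 0.43). Pttg1, securin, the inhibitor of separase, had 586 and 708 normalized counts in the fed libraries and 465 and 479 in the fasted libraries without tetracycline. With tetracycline it had 665 and 635 normalized counts in the fed libraries and 471 and 449.9 in the fasted libraries. Its fasted libraries were close to each other and lay under both fed libraries in each table, with changes in the authors' deposited tables of -0.46 (adjusted p 0.639, SE 0.29) and -0.497 (adjusted p 0.9999, SE 0.38). Cdc20, the activator of the complex that the checkpoint restrains, was at 59.6% of its fed mean without and 86.5% with tetracycline, and its groups overlapped in the second case.

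The 6 genes of the central spindle and cytokinesis had changes of -0.98 to -0.51 without tetracycline in the authors' deposited table. The groups were apart for 4 of the 6, against 23.1% of the decoded genes. Prc1, the bundler of the central spindle, had 3362 and 1879.7 normalized counts in the fed libraries and 1135 and 1523 in the fasted libraries and the lowest estimate, -0.98 (adjusted p 0.117, SE 0.34) in the authors' deposited table. Kif23, a motor of the centralspindlin complex, had 2727 and 1689.8 normalized counts in the fed libraries and 1327 and 1771 in the fasted libraries. Its fasted library 2 exceeded fed library 2, and its estimate of -0.51 (adjusted p 0.633, SE 0.32) in the authors' deposited table was the nearest to 0. With tetracycline Prc1 and Kif23 were again the extremes, at -0.79 (SE 0.43) and -0.46 (SE 0.44) in the authors' deposited table. The kinesins Kif20a and Kif4, the furrow scaffold Anln and the cytokinesis regulator Ect2 lay between them, at 56.3%, 61.2%, 59.7% and 64.8% of their fed means without tetracycline.

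Per kilobase of transcript, fed means without tetracycline ran from 126 normalized counts for Cenpf to 5486 for Ube2c. On this scale of levels Birc5 (2860.2), Cdca3 (2214) and Ccna2 (2197) followed Ube2c, ahead of Top2a (2112). Cdca3, Ccna2 and Top2a did not differ from each other on this scale beyond the spread of their fed libraries. The lengths are those of annotated transcripts and not of the isoforms present.

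Whether tetracycline altered the fasting change was tested as the difference of the deposited changes divided by its standard error, with the p-values of this Wald test given a Benjamini-Hochberg adjustment across 17571 genes. Of these, 4 genes (0.0228%) were called and 0 of 40 members were. At an unadjusted p under 0.05 the test gave 0 members and 1.05% of all genes. The smallest unadjusted p of a member was 0.216, for Cdca3, from a normal approximation. Its change with tetracycline minus that without was 0.65 (95% interval -0.38 to 1.68), followed by 0.54 (95% interval -0.48 to 1.56) for Ube2c, 0.54 (95% interval -0.47 to 1.55) for Cdc20 and 0.52 (95% interval -0.49 to 1.53) for Aurka. The difference was above 0 for 33 members and below 0 for 7. Its median was 0.26 on the log2 scale, against 0.00033 over all genes tested. Among the 7, it was -0.47 (95% interval -1.63 to 0.701) for Cenpf, -0.42 (95% interval -1.64 to 0.79) for Mki67 and -0.29 (95% interval -1.44 to 0.86) for Cenpe. Each of these intervals spans 0 and is wider than the largest fasting change of any member. A difference as large as the median change was therefore not detectable with these libraries. Across the 40 genes the changes of the separate tables, which share no library, correlated with coefficients of 0.198 (Pearson) and 0.225 (Spearman).

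Levels with and without tetracycline were compared only as a description, because the tables were scaled separately. Rebuilt group means were centred on the median log2 ratio of 21925 genes, which was 0.060 in fed and 0.064 in fasted crypts. In fed crypts 35 of 40 members were lower with tetracycline, with a median of -0.16, from -0.36 for Cdca3 to 0.23 for Cenpf. In fasted crypts 27 of 40 were higher, with a median of 0.088, from -0.24 for Cenpf to 0.29 for Cdca3. Without centring, 9 fed and 33 fasted members were higher with tetracycline. The medians are small beside the gaps between libraries of one side given above.

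The other cell cycle genes measured placed these values in context, as the plot of summed levels by library shows. A further list of 71 mitosis genes had 70 tested in each table. Without tetracycline 69 of the 70 had an estimate below 0 and 1 was called lower, with a median of -0.66 in the authors' deposited table. The called gene was Gtse1, a microtubule-associated protein of G2 phase, at -1.18 (adjusted p 0.042, SE 0.36) in the authors' deposited table. With tetracycline 66 of 70 had an estimate below 0 and 0 were called, with a median of -0.47 in the authors' deposited table. Dlgap5, a spindle protein, had the lowest of these with -0.88 (adjusted p 0.891, SE 0.43) in the authors' deposited table. Psrc1 was the highest in both tables, at 0.28 and 0.23 in the authors' deposited tables, and was not called.

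The 30 DNA replication genes, which act in S phase, had medians in the authors' deposited tables of -0.42 without and -0.37 with tetracycline, and 29 of 30 estimates were below 0 in each. The replication helicase factor Cdc45 was the only one called, at -1.05 (adjusted p 0.032, SE 0.31) without tetracycline in the authors' deposited table. The licensing factor Cdt1 had the highest estimate in both, 0.34 and 0.25 in the authors' deposited tables. Without tetracycline the sum over the 40 members divided by the sum over the replication genes was 1.62 and 1.37 for fed, and 1.11 and 1.24 for fasted libraries. This ratio was higher in both fed than in both fasted libraries. With tetracycline it was 1.31 and 1.57 for fed, and 1.13 and 1.41 for fasted libraries, which overlap.

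Among 19 DREAM, MuvB and E2F regulators, the factors that switch these promoters, 16 estimates without and 18 with tetracycline were below 0 and 0 were called in either table, with medians of -0.199 and -0.17 in the authors' deposited tables. Without tetracycline the lowest was the activator Mybl2 at -0.81 (adjusted p 0.157, SE 0.2996) and the highest E2f3, another activator, at 0.32 (adjusted p 0.856, SE 0.34), in the authors' deposited table. With tetracycline E2f7, a repressor, had the lowest estimate at -0.86 (adjusted p 0.9999, SE 0.55) and Tfdp2, a partner of E2F proteins, the highest at 0.01 (adjusted p 0.9999, SE 0.38) in the authors' deposited table. The 13 cell cycle inhibitors had 10 and 8 estimates below 0, 0 called, and medians of -0.26 and -0.23 in the authors' deposited tables. The lowest inhibitors were Cdkn2d at -0.73 (adjusted p 0.249, SE 0.296) without and Cdkn1c at -0.73 (adjusted p 0.9999, SE 0.41) with the antibiotic in the authors' deposited tables. The highest were Btg1 at 0.04 (adjusted p 0.988, SE 0.28) without and Btg2 at 0.67 (adjusted p 0.9999, SE 0.51) with the antibiotic in the authors' deposited tables. The 15 subunits of the anaphase-promoting complex, the ubiquitin ligase that marks cyclin B and securin for destruction, had 14 and 8 estimates below 0 and 0 called, with medians of -0.18 and -0.053 in the authors' deposited tables. In the authors' deposited tables the lowest of these estimates were those of Anapc11 without (-0.55) and Anapc1 with the antibiotic (-0.302), and Anapc16 had the highest in both (0.081 and 0.63). Their sum stayed at 85.0% to 102% of the fed mean in the 4 libraries without tetracycline, where that of the 40 members ran from 50.9% to 121%.

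**Figure D3:**
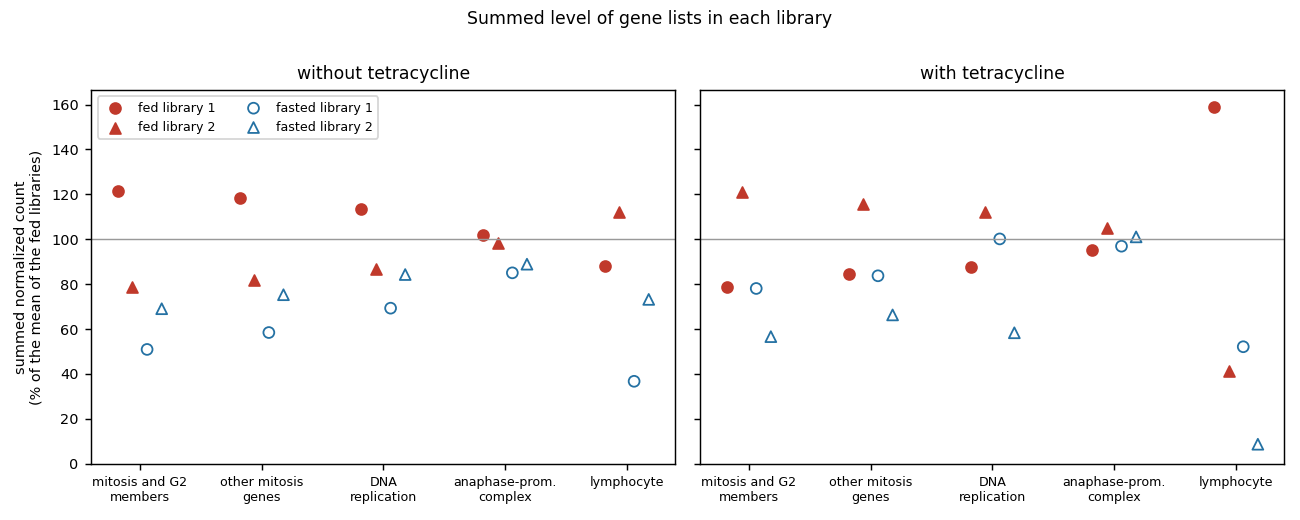
Summed normalized counts of 5 gene lists in each library, as a percentage of the mean of the fed libraries of that table, with fed libraries filled and fasted open. The 40 members run from 50.9% to 121% without and from 56.6% to 121% with tetracycline, and lymphocyte markers from 36.7% to 112% and from 8.66% to 159%.

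The 9 crypt base stem cell markers had a median change in the authors' deposited tables of 0.29 without and 0.27 with tetracycline, and 0 of 9 were called in either. The estimates ran from -0.46 to 1.06 without and from -0.51 to 0.78 with tetracycline in the authors' deposited tables, with 2 of 9 below 0 in each. The lowest in both was Olfm4, the most abundant of them, and the highest in both was Lgr5. Summed over the 9 markers, the rebuilt group means were 90659 normalized counts in fed and 72389.7 in fasted crypts without tetracycline, and 82768 and 65175 with it. Without Olfm4, whose counts could not be rebuilt per library, the other 8 markers summed to 19658.5 and 13514.6 normalized counts in the fed and 16759 and 20641.8 in the fasted libraries without tetracycline. With tetracycline these 8 summed to 12071 and 20320.3 for fed, and 25796 and 10889.6 for fasted libraries, so that the groups overlapped in both tables.

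Of the 10 lymphocyte markers, 10 had estimates below 0 in each table, with medians of -1.01 and -1.76, and 4 and 0 were called lower in the authors' deposited tables. Without tetracycline their summed counts reached 16362 and 20819.5 for fed, and 6824 and 13607 for fasted libraries. With it they reached 68747 and 17776 for fed, and 22539 and 3748 for fasted libraries. Germinal centre B cells divide fast, and 5 of their 6 markers had estimates below 0 in each table, with 2 called lower without and 0 with tetracycline. In both tables the fed library with the higher lymphocyte sum had the lower sum of the 40 members, whereas the fasted library with the higher lymphocyte sum also had the higher sum of the 40 members. All 7 stroma and vessel markers without and 5 of 7 with tetracycline had estimates below 0, with 3 and 0 called lower. The 7 Paneth cell markers had medians of 1.15 and 1.27 in the authors' deposited tables, with 5 and 1 called higher. The 9 enterocyte markers had medians of 0.58 and 0.82 in the authors' deposited tables, with 1 and 0 called higher. Of all genes tested, 1.06% without and 0.333% with tetracycline were called higher. The part of these cell types in the values of the 40 genes was not tested.

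Transcript length went with the ratio between the fed libraries, and much less with that between the fasted ones. Over the 40 genes, log2 length and the log2 ratio of fed library 1 to fed library 2 correlated with coefficients of 0.67 (Pearson) and 0.63 (Spearman) without tetracycline. With tetracycline they were -0.58 (Pearson) and -0.57 (Spearman), so in each table the fed library with more of these RNAs had relatively more of the long ones. For the ratio of fasted library 1 to fasted library 2, the coefficients were 0.019 (Pearson) and 0.186 (Spearman) without, and 0.039 and -0.029 with tetracycline. Length and the fasting change had coefficients of 0.48 (Pearson) and 0.47 (Spearman) without, and of -0.398 and -0.37 with tetracycline. Over all tested genes with a mean of 300 to 10000, the Pearson coefficient between length and the fed library ratio was 0.45 without (9261 genes) and -0.087 with tetracycline (9455 genes). Over the same genes, length and the fasting change had coefficients of 0.33 (Pearson) and 0.42 (Spearman) without, and of -0.070 and -0.118 with tetracycline. All points of a table share the same libraries, so these are descriptions of those libraries. The 8 longest members, from 4819 to 11130 bases, were Cenpe, Cenpf, Kif11, Kif4, Mad2l1, Mki67, Smc2 and Top2a. Their median change was -0.68 without and -0.76 with tetracycline, and that of the 8 shortest, from 947 to 1945 bases, was -0.73 and -0.39, in the authors' deposited tables. The part of transcript length in the fasting changes was not tested.

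**Figure D4:**
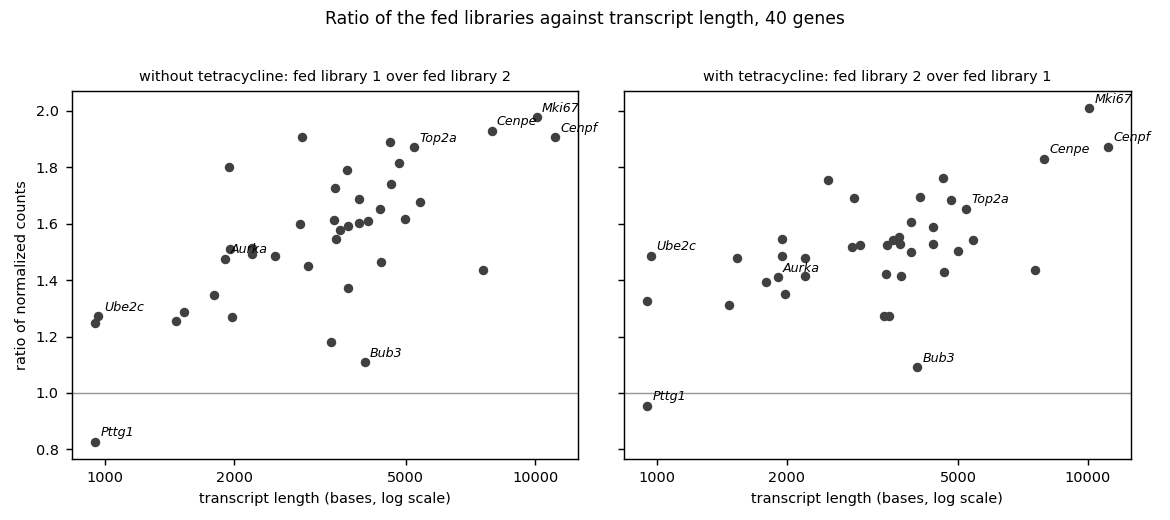
Ratio of normalized counts between the fed libraries against transcript length (log scale) for the 40 genes, without (left, library 1 over library 2) and with tetracycline (right, library 2 over library 1). Mki67, Cenpe and Cenpf, the longest transcripts, have ratios near the top of each panel, and Pttg1, among the shortest, is the only gene below 1.

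The library kit does not keep the strand, and exons of 8 members overlap a gene on the opposite strand: Ccna2, Cdc20, Kif20a, Kif4, Nusap1, Plk1, Prc1 and Ube2c. Of the called genes this touches Plk1, which overlaps Gm44985, and Ube2c, which overlaps Tnnc2. Reads from such a shared stretch cannot be told apart by strand, whereas Aurka, Birc5 and Cdca3 had no such overlap in the annotation used.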

How the data were processed

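Per the submitters' processing notes, Salmon, DESeq2 and mm10 were used, without versions. The annotation release is not given in the sources used here. Per the file headers, the deposited mean is a signal (counts divided by size factors, averaged over a table's libraries), the deposited fold change is a log2 value with its standard error, the deposited statistic is a score, and the deposited p-values carry a Benjamini-Hochberg adjustment. The tables were scaled separately, and 0 per-sample columns were left unused. No column gives the direction, and fasted over fed was taken from the words in the tables' names, on which every direction given depends. Acot1, Pdk4 and Angptl4 are higher in fasted mice under it in both tables.

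Because size factors divide whole counts, the counts of 2 fed and 2 fasted libraries were solved from each deposited mean and fold change, up to a mean of 10000. A single solution was found for 99.99% of rows in each table. Refitted log2 changes differed from the deposited ones by a median of 4.56e-07 and 9.74e-07 at means of at least 50, and all 40 members were solved. The solver was tested on simulated data. The fold change helped to choose the solution, so this closeness is partly built in. Salmon is named as a tool, but how its estimates became whole counts is not given in the sources used here. Counts estimated by Salmon would have been rounded. Values are counts divided by size factors. Calls use the authors' adjusted p under 0.05. Group means were rebuilt from mean and fold change, with pseudocount 1 for tetracycline levels. Transcript lengths and overlaps came from GENCODE mouse release M21 (a principal transcript for 30 members, otherwise the longest), to which 99.3% and 99.2% of identifiers matched without version, and promoters from RefSeq. Python 3.11.15, numpy 2.4.6, pandas 2.3.3 and scipy 1.17.1 were used.

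The members and all lists were chosen with earlier results of these data known. Named members are those called in either table and, per role, the highest mean and the lowest and highest change. Other lists are named by their called genes and extremes with a mean of at least 50. Markers Olfm4 and Lgr5 are named as the extremes of their list, chosen after their values were seen. The alternatives were other adjustments and thresholds, centring, pseudocounts, leaving out libraries, a restricted gene set or rescaled statistic for the difference, and a shorter promoter window.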

Additional observations from a re-analysis of the deposited data

How the results depend on the processing

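Without tetracycline, the count of members called lower moved from 5 to 2 when the p-values were adjusted over every gene with a p, and to 1 at an adjusted p under 0.01. It was 5 over genes with a mean of at least 50, 7 at 0.1 and 4 after centring on the median change. Aurka passed in all of these, Birc5 was lost at 0.01, Cdca3 and Ube2c also over every gene, and Plk1 also after centring. With tetracycline the count was 0 under each of these settings, and 0 members were called for the difference with a rescaled statistic or with low genes left out. Leaving out 1 library at a time gave 37 to 40 members below 0 and medians of -1.09 to -0.49 without tetracycline, and 34 to 40 members and medians of -0.83 to -0.23 with it. Under the deposited scaling, 9 fed members in place of 5 were higher with tetracycline. TTTGAA was found in 12 promoters in place of 26 in the shorter window, which holds fewer bases and ends at the start. No median and no called gene turned its direction under these alternatives, while up to 3 single members without and 6 with tetracycline lay above 0 when 1 library was left out. No paired analysis was possible because each group has 1 labelled sample and the libraries carry no label. With 2 libraries per side, standard errors of 0.25 to 0.51 limit what could be called.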
